A study of Drosophila melanogaster with 10 samples.

Results

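The genes described here carry the juvenile hormone signal in the fly or break the hormone down. They were chosen by symbol, though with earlier results of these data known. They are Met, gce, Kr-h1, Jheh1, Jheh2, Jheh3, Jhe and Jhedup, 8 of the 13986 gene identifiers in the expression tables of a Drosophila melanogaster study. All 8 had a row. The study asked what the transcription factor gene fruitless (fru) does in oenocytes, the abdominal cells beneath the cuticle that make the cuticular hydrocarbons used as pheromones. Polyadenylated RNA was sequenced from oenocytes of adult males of 5 genotypes, with 2 replicate libraries per genotype. Flies were kept at 25 °C until eclosion and then at 29 °C for 7 days. All 5 genotypes carried the oenocyte driver prom-E800-Gal4, and the control label adds UAS-mCD8-GFP, a membrane-bound green fluorescent protein. In 3 genotypes the driver expressed a hairpin RNA against fru, from stock VDRC330035, BDSC#31593 or VDRC105005, and these fru-RNAi lines are called by their stocks. In the fifth, FruCOMB OE, it expressed a UAS construct of the FruCOM B isoform. Each hairpin came from 1 stock with its own insertion site and genetic background, so hairpin, insertion and background cannot be told apart. The study calls its replicates biological. Neither it nor the labels say how flies were divided between them, and the p values measure the spread between these libraries.

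Juvenile hormone is a sesquiterpenoid made by the corpora allata, glands near the brain, from mevalonate pathway intermediates. It binds Met and Gce, paralogous bHLH-PAS proteins that act as its intracellular receptors and switch on Kr-h1, a zinc finger gene that keeps larval tissues from metamorphosis. In adults the hormone is best known for its roles in reproduction. Epoxide hydrolases (the Jheh genes) open its epoxide ring, and an esterase (Jhe) cleaves its methyl ester, and both steps end its activity.

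The libraries held between 23415354 and 46840820 counts. Levels are given as the authors' TMM-rescaled TPM, the length-corrected share of a transcript in its library multiplied by 1 factor per library so that libraries can be compared. The fru transcript itself was at 2.26 and 2.34 in control, at 1.60 and 1.62 in VDRC105005 and at 43.5 and 43.3 in FruCOMB OE. It was above control, at 3.66 and 3.55, in the libraries labelled VDRC330035 and, at 7.29 and 7.32, in those labelled BDSC#31593. By counts, the log2 fold change of fru against control was 0.57 in VDRC330035 and 1.03 in BDSC#31593. The rise of this RNA in both lines is opposite to the knockdown that their labels name. Whether transcripts of the hairpin were counted as fru was not tested. Any direction given for these lines is that of the labelled libraries. The study itself reports weaker Fru antibody signal with both stocks in the larval nervous system and none in fru-RNAi oenocytes. It also reports RT-qPCR with a whole-body driver. Those measures are of protein or of other tissue than these libraries. Defining markers of oenocytes (9 genes) were present in all 10 libraries, with a summed level of 65161 to 65613 in control, 16279 to 16299 in VDRC330035, 77591 to 79838 in BDSC#31593, 92069 to 93386 in VDRC105005 and 45534 to 45745 in FruCOMB OE. Most of each sum was Cyp4g1, at 53858.7 and 54202.7 in control and 8968.0 and 8951.0 in VDRC330035. It was at 69011.7 and 66986.6 in BDSC#31593, 80360.5 and 79109.3 in VDRC105005 and 40224.5 and 40492.6 in FruCOMB OE. Markers of other tissues also differed. Those of gut (12 genes) summed to 1052 in replicate 2 of BDSC#31593 and 856 in replicate 2 of VDRC105005, against 108 to 384 in the other 8 libraries. Muscle markers (10 genes) summed to 1209 to 1215 in control and 1449 to 2530 elsewhere, and accessory gland markers (7 genes) to 94.1 to 97.9 in control, 537 to 576 in VDRC330035 and BDSC#31593, 110 to 116 in VDRC105005 and 9.52 to 10.9 in FruCOMB OE. Fat body markers (8 genes, Fbp2 at or near 0 in every library) summed to 1665 to 1672 in control, 782 to 797 in VDRC330035, 1265 to 1270 in BDSC#31593, 1633 to 1643 in VDRC105005 and 932 to 952 in FruCOMB OE. Hemocyte markers (7 genes) summed to 565 to 574 in control, 642 to 649 in VDRC330035, 207 to 215 in BDSC#31593, 201 to 204 in VDRC105005 and 76.0 to 77.4 in FruCOMB OE, nearly all of it crq, a scavenger receptor gene, since the other 6 summed to 6.38 to 10.8 in all libraries. In such bulk samples, fewer cells of a type and less RNA per cell cannot be told apart.

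Of the 8 genes, Jheh2 was the most abundant in every library and Jhedup the least, and the genes did not move as a block. Against control, Jheh2 rose and Jheh3 fell in all 4 manipulated genotypes. Kr-h1 rose in the 3 fru-RNAi genotypes and fell in FruCOMB OE. Its rise in VDRC330035 was no longer called when all counts of an overlapping gene, CG45075, which itself fell there, were added to it. Differences were tested with edgeR's quasi-likelihood test on 2 against 2 libraries and called at a Benjamini-Hochberg adjusted p under 0.05 over all genes tested. All adjusted p values below come from that test unless another is named. The filter on low counts left 7 of the 8 genes in each comparison and dropped Jhedup. In VDRC330035, 6 of the 7 were called, where 62.3% of all genes tested were. Of these 3 were higher (31.7% of all genes) and 3 lower (30.6%), and by at least 2-fold 2 were higher (8.51%) and 1 lower (4.96%). In BDSC#31593, 6 were called (49.9% of all genes), 5 higher (26%) and 1 lower (23.9%), and by at least 2-fold 2 were higher (5.74%) and 0 lower (3.18%). In VDRC105005, 5 were called (52.7% of all genes), 3 higher (26%) and 2 lower (26.7%), and by at least 2-fold 2 were higher (5.12%) and 0 lower (3.62%). In FruCOMB OE, 6 were called (65% of all genes), 3 higher (31.4%) and 3 lower (33.7%), and by at least 2-fold 3 were higher (8.15%) and 1 lower (9.91%). With calls so common across the transcriptome these counts say little by themselves, and the sizes of the differences are given gene by gene. The 4 comparisons share the 2 control libraries and are not independent of each other. A difference from control found in all 4 genotypes, as for Jheh2 and Jheh3, cannot be told apart from a trait of the control.

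**Figure D1:**
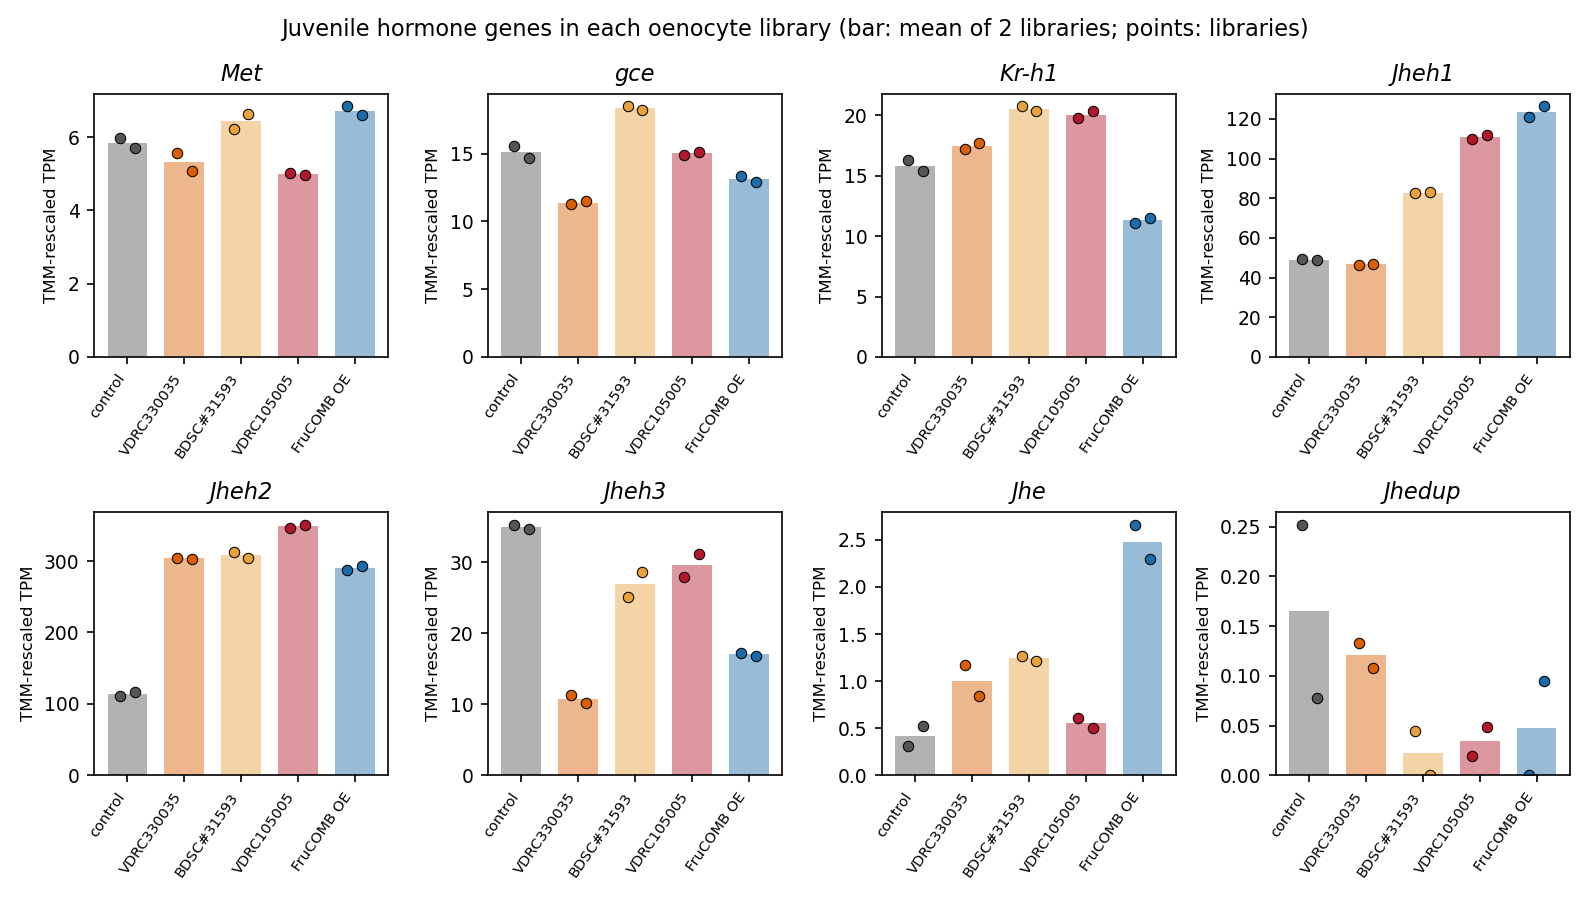
TMM-rescaled TPM (y axis of each panel, from 0, each panel with its own scale) of the 8 juvenile hormone genes in the 5 genotypes (x axis). Points are libraries and bars are means of 2 libraries. Both control libraries lie under the other 8 for Jheh2 and above the other 8 for Jheh3, while Jhedup stays at or under 0.252 everywhere.

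**Figure D2:**
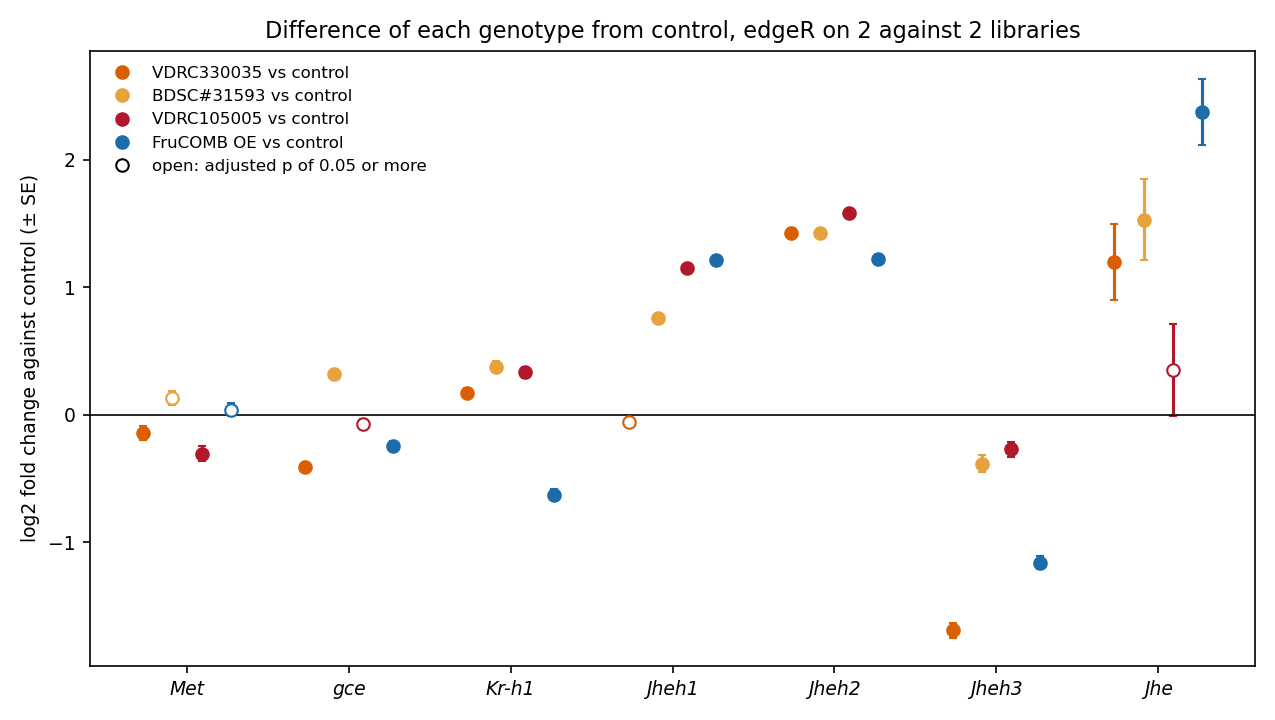
Log2 fold change against control (y axis) with its standard error for the 7 genes tested (x axis) in each of the 4 other genotypes (colour), from edgeR. Open symbols have an adjusted p of 0.05 or more. Jheh2 lies between 1.22 and 1.59, Jheh3 between -1.69 and -0.27, and Jhe between 0.35 and 2.38 with much wider errors.

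Met and gce lie on the X chromosome, Met at X:11616124-11621280 and gce at X:15297766-15319074, both on the plus strand in BDGP6.54. Met, the receptor gene first found through resistance to a hormone analog, was at 5.97 and 5.70 TMM-rescaled TPM in control, 5.58 and 5.09 in VDRC330035, 6.22 and 6.63 in BDSC#31593, 5.02 and 4.97 in VDRC105005 and 6.85 and 6.60 in FruCOMB OE. The whole range over the 10 libraries was 4.97 to 6.85, and the VDRC105005 libraries were the lowest. Met fell by 0.31 on the log2 scale in VDRC105005 (SE 0.06, adjusted p = 0.00234), a call that was lost in limma on the rescaled values plus 1 (-0.19, adjusted p = 0.0845) or plus 0.1 (-0.22, adjusted p = 0.0802). The fall by 0.15 in VDRC330035 passed narrowly (adjusted p = 0.0323), and its call did not hold with DESeq2, without any of the 4 libraries or in limma. Scaled by library size alone its value was 0.07, the opposite sign. In BDSC#31593 (log2 fold change 0.13, adjusted p = 0.0861) and FruCOMB OE (0.04, adjusted p = 0.532) Met was not called.

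The gce transcript, which encodes the second receptor, was at 15.6 and 14.7 TMM-rescaled TPM in control. It was at 11.3 and 11.5 in VDRC330035, 18.5 and 18.2 in BDSC#31593, 14.9 and 15.1 in VDRC105005 and 13.3 and 12.9 in FruCOMB OE. Both VDRC330035 libraries were under every other library and both BDSC#31593 libraries above every other. Against control gce fell by 0.41 on the log2 scale in VDRC330035 (SE 0.04, adjusted p = 1.71e-07) and by 0.25 in FruCOMB OE (SE 0.04, adjusted p = 0.000103), and rose by 0.32 in BDSC#31593 (SE 0.04, adjusted p = 0.000156). The FruCOMB OE value was -0.07, and no longer called, when scaled by library size alone. In VDRC105005 the value was -0.07 (adjusted p = 0.133). The share of genes tested that differed by more than gce was 44.6% in VDRC330035, 51.1% in BDSC#31593 and 71.2% in FruCOMB OE. The direct comparison of VDRC330035 with BDSC#31593 gave -0.73 (SE 0.03, adjusted p = 1.6e-06), so these lines differed from each other by more than either did from control. Transcripts of gce outnumbered those of Met in every genotype, with a ratio of 2.59 ± 0.02 (SD, n = 2) in control, 2.14 ± 0.17 in VDRC330035, 2.86 ± 0.17 in BDSC#31593, 3.0 ± 0.06 in VDRC105005 and 1.95 ± 0.01 in FruCOMB OE. The exons of gce overlap those of the antisense RNA genes CR44429 and CR44961, which are not among the genes of the tables. Whether the counting used strand is not given in the sources used here, and without strand, reads from either side cannot be told apart.

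Kr-h1, the gene that hormone-bound Met and Gce induce, lies at 2L:6082603-6096498 on the plus strand. It was at 16.4 and 15.4 TMM-rescaled TPM in control, 17.3 and 17.7 in VDRC330035, 20.8 and 20.4 in BDSC#31593, 19.8 and 20.3 in VDRC105005 and 11.1 and 11.5 in FruCOMB OE. No genotype's libraries overlapped those of control: the 6 fru-RNAi libraries were above it and the 2 FruCOMB OE libraries under it. Kr-h1 rose by 0.38 on the log2 scale in BDSC#31593 (SE 0.04, adjusted p = 0.000193), by 0.33 in VDRC105005 (SE 0.04, adjusted p = 0.000196) and by 0.17 in VDRC330035 (SE 0.04, adjusted p = 0.00163). The smallest of these was 0.11 without control replicate 2 (adjusted p = 0.0313), 0.38 when scaled by library size alone (adjusted p = 7.46e-07), and was not called in limma on the rescaled values (adjusted p = 0.0614). In FruCOMB OE Kr-h1 fell by 0.63 (SE 0.05, adjusted p = 1.12e-07). This was a 1.54-fold lower level, and 36.9% of the genes tested in that comparison differed by more. For the rises of Kr-h1 that share was larger, at 44.2% in BDSC#31593, 49% in VDRC105005 and 74% in VDRC330035. Set directly against the fru-RNAi lines, FruCOMB OE was lower by a log2 value of -0.76 (VDRC330035, adjusted p = 4.53e-10), -0.96 (BDSC#31593, adjusted p = 1.5e-06) and -0.89 (VDRC105005, adjusted p = 6.11e-07). Between BDSC#31593 and VDRC105005 Kr-h1 was not called (log2 fold change 0.03, SE 0.03, adjusted p = 0.482).

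The exons of Kr-h1 overlap those of CG45075 on the same strand. The deposited estimates of both genes were not whole numbers in 9 of the 10 libraries, while their sum was whole in all 10 (to within 0.02 counts), so the authors' counting divided reads between them. CG45075 was far lower, at 3.38 to 6.33 TMM-rescaled TPM. Its log2 fold changes against control were -0.41 in VDRC330035 (adjusted p = 0.00138), 0.22 in BDSC#31593 (adjusted p = 0.0668), -0.59 in VDRC105005 (adjusted p = 0.000359) and -0.07 in FruCOMB OE (adjusted p = 0.418). In VDRC330035 and VDRC105005 CG45075 thus fell where Kr-h1 rose. With the counts of both genes summed, an alternative chosen after seeing the data, the log2 fold change against control was 0.05 in VDRC330035 (SE 0.03, adjusted p = 0.159) and no longer called. It was 0.16 in VDRC105005 (SE 0.03, adjusted p = 0.00176), 0.34 in BDSC#31593 (SE 0.03, adjusted p = 7.93e-05) and -0.48 in FruCOMB OE (SE 0.03, adjusted p = 1.16e-07).

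The epoxide hydrolase genes sit side by side on 2R within 8645 bp, all on the minus strand: Jheh1 at 2R:18853434-18855087, Jheh2 at 2R:18855767-18858245 and Jheh3 at 2R:18860375-18862078. Jheh2 had the strongest signal of the 8 genes, at 111 and 117 TMM-rescaled TPM in control, a level above that of 92.6% of the genes detected there. It was at 304 and 303 in VDRC330035, 312 and 304 in BDSC#31593, 347 and 351 in VDRC105005 and 288 and 293 in FruCOMB OE. All 8 libraries of the manipulated genotypes were above both control libraries, and the gap to the nearest was much wider than that between any pair of replicates. All 4 comparisons use the same control, so a trait of the control libraries cannot be told apart from a shared effect of the manipulations. The rise was 2.68-fold in VDRC330035 (log2 fold change 1.42, SE 0.02, adjusted p = 4.36e-15), 2.69-fold in BDSC#31593 (1.43, SE 0.03, adjusted p = 7.47e-09), 3.0-fold in VDRC105005 (1.59, SE 0.02, adjusted p = 5.88e-10) and 2.34-fold in FruCOMB OE (1.22, SE 0.03, adjusted p = 1.11e-12). Only 3.58% of the genes tested in VDRC105005 and 7.17% in VDRC330035 differed by more, in either direction, though 12.9% did so in FruCOMB OE. The call held under every alternative run, with log2 fold changes between 1.18 and 1.64.

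Among the 4 genotypes Jheh2 was ordered VDRC105005, BDSC#31593, VDRC330035 and FruCOMB OE. The middle pair could not be separated, with a log2 difference of 0.00087 and an SE of 0.018 (adjusted p = 0.977). FruCOMB OE was lower than VDRC330035 by -0.16 (adjusted p = 6.18e-06) and VDRC105005 was higher than BDSC#31593 by 0.17 (adjusted p = 0.000798). Jheh2 and the summed muscle markers were both lowest in control. The muscle gene Mlp84B was among the genes that tracked Jheh2 most closely over the 10 libraries (r = 0.98). VDRC105005 had the highest Jheh2 and, at 1449 to 1453, the lowest muscle sum of the 4. Without replicate 2 of VDRC105005 and of BDSC#31593, the libraries rich in gut markers, the log2 fold changes of Jheh2 against control were 1.59 and 1.45. The part of muscle or gut tissue in the rise of Jheh2 was not tested.

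Jheh1 did not follow its neighbour in every genotype. It was at 49.2 and 48.8 TMM-rescaled TPM in control, 46.4 and 47.0 in VDRC330035, 82.6 and 83.1 in BDSC#31593, 110 and 112 in VDRC105005 and 121 and 126 in FruCOMB OE. The VDRC330035 libraries lay just under control and the other 6 well above it. Jheh1 rose by 0.75 on the log2 scale in BDSC#31593 (SE 0.03, adjusted p = 6.3e-07), by 1.15 in VDRC105005 (SE 0.03, adjusted p = 5.68e-09) and by 1.21 in FruCOMB OE (SE 0.03, adjusted p = 1.19e-11). In VDRC330035 the value was -0.06 (SE 0.03, adjusted p = 0.155). Scaled by library size alone it was 0.16 and called higher (adjusted p = 0.00112), so even its sign depends on the scaling. The direct comparisons put VDRC330035 below BDSC#31593 by -0.81 and below VDRC105005 by -1.23 (adjusted p = 6.9e-07 and 6.87e-09), and FruCOMB OE above VDRC330035 by 1.31 (adjusted p = 6.05e-14).

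Jheh3 went the other way. It was at 35.3 and 34.7 TMM-rescaled TPM in control, 11.3 and 10.3 in VDRC330035, 25.2 and 28.7 in BDSC#31593, 27.9 and 31.2 in VDRC105005 and 17.3 and 16.9 in FruCOMB OE. Control was the highest of the 5 genotypes, without overlap. Jheh3 fell 3.24-fold in VDRC330035 (log2 fold change -1.69, SE 0.06, adjusted p = 5.02e-12) and 2.24-fold in FruCOMB OE (-1.16, SE 0.05, adjusted p = 6.4e-10). The falls in BDSC#31593 (-0.38, SE 0.07, adjusted p = 0.00205) and VDRC105005 (-0.27, SE 0.06, adjusted p = 0.00487) were small, and 43.3% and 56.5% of all genes tested differed by more. Between BDSC#31593 and VDRC105005 Jheh3 was not called (log2 fold change -0.12, SE 0.08, adjusted p = 0.315). In both lines replicate 2 was the higher one and also the one rich in gut markers. Without it the log2 fold change was -0.47 in BDSC#31593 (adjusted p = 7.41e-06) and -0.34 in VDRC105005 (adjusted p = 0.00025). The summed oenocyte markers, most of them Cyp4g1, were lowest in the genotypes with the larger falls, VDRC330035 and FruCOMB OE. In BDSC#31593 and VDRC105005 the sum was above control while Jheh3 was below it. The single oenocyte markers were mixed there. Of the 9, 5 were called higher and 3 lower in BDSC#31593 (26% and 23.9% of all genes tested). In VDRC105005 5 were also higher and 3 lower (26% and 26.7%). The summed fat body markers had the same order over the 5 genotypes as Jheh3. Most of their fall came from Lsd-1, a lipid droplet gene at 839 and 842 in control and 103 to 332 elsewhere. The other 7 summed to 826 to 830 in control, 598 to 615 in VDRC330035, 829 to 844 in FruCOMB OE, 1076 to 1077 in BDSC#31593 and 1301 to 1312 in VDRC105005, an order that Jheh3 did not follow. The part of either marker list in the falls of Jheh3 was not tested.

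Summed over the epoxide hydrolase genes, the level rose from 198 ± 3.32 TMM-rescaled TPM in control (SD, n = 2) to 361 ± 1.25 in VDRC330035, 418 ± 3.22 in BDSC#31593, 489 ± 6.77 in VDRC105005 and 431 ± 7.47 in FruCOMB OE. An exact two-sided permutation test of 2 against 2 libraries cannot go below p = 0.333, so these sums are given as values. Jheh3 supplied 17.7% of the sum in control, 2.99% in VDRC330035, 6.45% in BDSC#31593, 6.04% in VDRC105005 and 3.96% in FruCOMB OE. Jheh2 supplied 57.6% in control, 84.1% in VDRC330035 and 67.4% to 73.7% in the other genotypes. In FruCOMB OE Jheh1 and Jheh2 rose by about the same factor, and their ratio of 2.35 ± 0.05 was close to the 2.33 ± 0.10 of control. In VDRC330035 that ratio was 6.51 ± 0.08. A ratio within a library does not depend on the scaling between libraries. All 3 genes overlap exons of CR46485, an antisense RNA gene that is not among the genes of the tables.

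**Figure D3:**
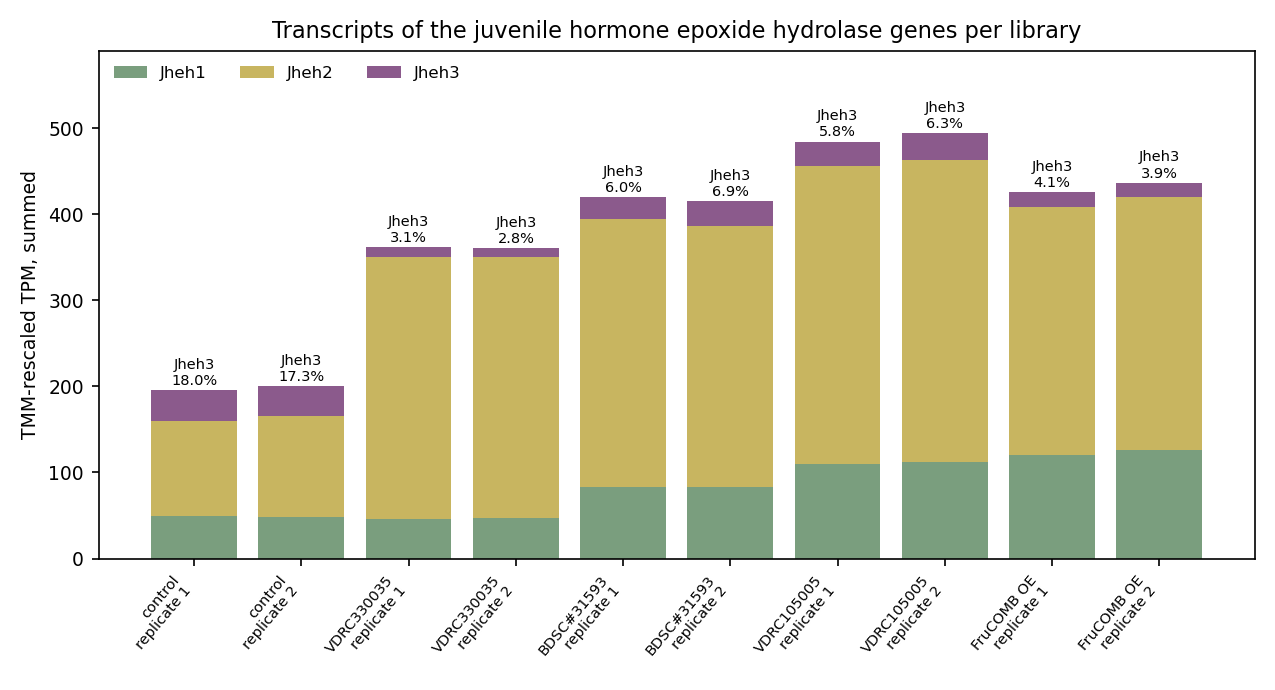
Stacked TMM-rescaled TPM (y axis, from 0) of Jheh1, Jheh2 and Jheh3 in each of the 10 libraries (x axis), with the share of Jheh3 in the sum printed above each bar. The control bars reach 196 and 200 with Jheh3 shares of 18.0% and 17.3%, and the other 8 bars reach 360 to 494 with Jheh3 shares of 2.85% to 6.90%.

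The genes around this cluster gave mixed values. Among the 18 other genes within 10 gene positions on either side of Jheh2, a window drawn after the values of the cluster were seen, 16 or 17 were tested. In VDRC330035, 8 were called higher and 4 lower (31.7% and 30.6% of all genes tested). The counts were 4 and 5 in BDSC#31593 (26% and 23.9%), 4 and 3 in VDRC105005 (26% and 26.7%) and 5 and 5 in FruCOMB OE (31.4% and 33.7%). A cause that acts over the whole region was not tested. At least 2-fold higher calls numbered 3 in VDRC330035 (8.51% of all genes tested), 0 in BDSC#31593 (5.74%), 0 in VDRC105005 (5.12%) and 2 in FruCOMB OE (8.15%). At least 2-fold lower calls numbered 0 (4.96%), 1 (3.18%), 1 (3.62%) and 0 (9.91%) in the same order, and the median log2 fold changes were 0.39, -0.19, -0.05 and -0.16. The nearest tested gene beside Jheh1, CG18190, was higher in VDRC330035 (log2 fold change 1.47), where Jheh1 was not called, and was at -0.35 and not called in FruCOMB OE (adjusted p = 0.273), where Jheh1 rose. DptA, which encodes the antibacterial peptide diptericin, rose by 1.5 in VDRC330035 and by 1.52 in FruCOMB OE but was not called in BDSC#31593 (-0.82) or VDRC105005 (-0.11). The genes of the window named here were chosen after their values were seen.

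**Figure D4:**
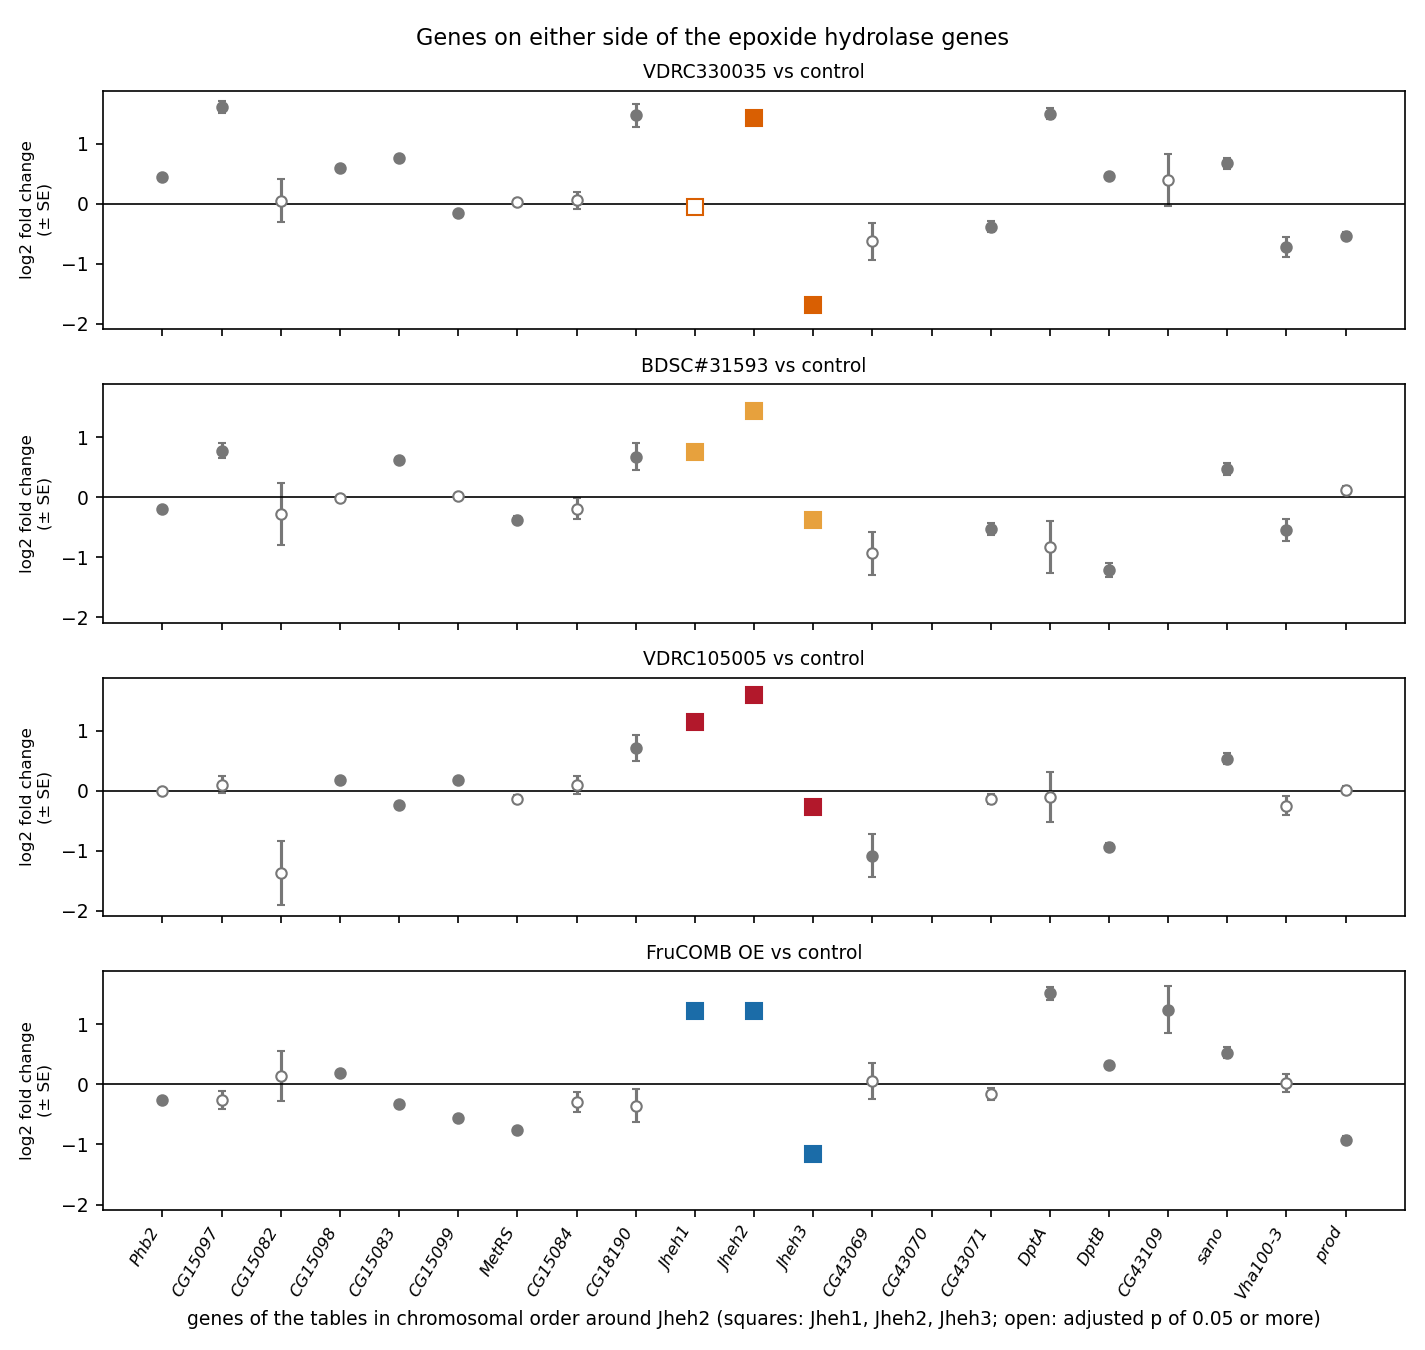
Log2 fold change against control with its standard error (y axis) for the genes within 10 positions of Jheh2 in chromosomal order (x axis), 1 panel per genotype, from edgeR. Squares are Jheh1, Jheh2 and Jheh3, circles the other genes, and open symbols have an adjusted p of 0.05 or more. Jheh2 is above 1.2 and Jheh3 below 0 in all 4 panels, while the circles scatter on both sides of 0.

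Jhe encodes the juvenile hormone esterase and lies at 2R:16119793-16122773 on the plus strand, next to its duplicate Jhedup at 2R:16117109-16119149. Jhe was rare, with 14 and 31 counts in control, 77 and 77 in VDRC330035, 60 and 44 in BDSC#31593, 32 and 23 in VDRC105005 and 107 and 146 in FruCOMB OE. As TMM-rescaled TPM these were 0.310 and 0.524 in control, 1.17 and 0.839 in VDRC330035, 1.27 and 1.21 in BDSC#31593, 0.613 and 0.504 in VDRC105005 and 2.66 and 2.29 in FruCOMB OE. The VDRC105005 libraries overlapped control and the other 6 were above it. Jhe rose 5.20-fold in FruCOMB OE (log2 fold change 2.38, SE 0.26, adjusted p = 5.38e-06), the largest rise of the 7 genes tested and one that 3.3% of all genes tested exceeded in either direction. It also rose in VDRC330035 (1.2, SE 0.30, adjusted p = 0.00309) and BDSC#31593 (1.53, SE 0.32, adjusted p = 0.00485). In VDRC105005 it was not called (0.35, SE 0.36, adjusted p = 0.447). At such counts the size is loose: leaving out 1 library at a time moved the FruCOMB OE value between 2.05 and 2.86, and limma on log2 of the rescaled value plus 1 gave 1.30. FruCOMB OE was above BDSC#31593 by 0.91 (adjusted p = 0.00377) and above VDRC330035 by 1.22 (adjusted p = 6.49e-05). Even there the Jhe level was 0.57% of the summed epoxide hydrolase level.

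Jhedup, which in sequence resembles Jhe, was close to undetected. It had 10 and 4 counts in control, 8 and 9 in VDRC330035, 2 and 0 in BDSC#31593, 1 and 2 in VDRC105005 and 0 and 5 in FruCOMB OE. The low-count filter left it out of every comparison. No difference was detectable at this depth, where a count of 0 allows up to 3 counts in a library, or 0.125 CPM in replicate 2 of BDSC#31593 and 0.128 in replicate 1 of FruCOMB OE (counting error only). Reads shared between Jhe and Jhedup would be divided by the authors' counting, though the counts of both were whole numbers in all 10 libraries.

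Between the 4 manipulated genotypes themselves, the 7 genes tested gave 5 calls for VDRC330035 against BDSC#31593 (51.7% of all genes tested were called), 6 for VDRC330035 against VDRC105005 (56.6%) and 5 for BDSC#31593 against VDRC105005 (36.3%). FruCOMB OE gave 7 calls against VDRC330035 (67.9%), 6 against BDSC#31593 (59.8%) and 7 against VDRC105005 (61.9%). In each of the 6 comparisons the share called was higher among these genes than over the transcriptome, but it rests on only 7 genes and says little by itself. Under the alternatives the count ranged from 4 to 5 for VDRC330035 against BDSC#31593 and from 5 to 7 for FruCOMB OE against VDRC105005. Met was ordered FruCOMB OE, BDSC#31593, control, VDRC330035 and VDRC105005, and of the neighbours in that order none but control and VDRC330035 was separated (adjusted p = 0.0323, the narrow call above). For gce, control and VDRC105005 were not separated, and for Kr-h1, BDSC#31593 and VDRC105005 were not.

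The rest of the juvenile hormone pathway was described with lists of genes chosen for their known roles. Their counts are to be read against the shares of all genes tested that were called higher and lower, which were 31.7% and 30.6% in VDRC330035, 26% and 23.9% in BDSC#31593, 26% and 26.7% in VDRC105005 and 31.4% and 33.7% in FruCOMB OE. The synthesis list held 9 genes, all tested. In VDRC330035, 3 were called higher and 4 lower (median log2 fold change 0.04), in BDSC#31593 0 and 6 (-0.60), in VDRC105005 1 and 5 (-0.15) and in FruCOMB OE 1 and 5 (-0.22). Lower calls thus took a larger share of this list than of all genes in all 4 genotypes. The medians over all genes tested were between -0.02 and 0.04. Hmgs, the mevalonate pathway enzyme that makes HMG-CoA, was by far the most abundant and fell everywhere. Its level was 7771 and 7775 TMM-rescaled TPM in control, 2010 and 2038 in VDRC330035, 3589 and 3548 in BDSC#31593, 3290 and 3317 in VDRC105005 and 191 and 188 in FruCOMB OE. The genotypes did not overlap, and FruCOMB OE stood more than 10-fold under any other. The log2 fold changes against control were -1.93, -1.13, -1.26 and -5.51 (largest adjusted p = 3.16e-09). Mvd, a later enzyme of the mevalonate pathway, was at 48.5 and 48.1 in control and at 17.1 and 16.9 in FruCOMB OE (log2 fold change -1.61, adjusted p = 7.92e-12).

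The later enzymes Fpps and jhamt moved differently, and most in VDRC330035. Fpps, which makes farnesyl diphosphate, the precursor from which the hormone's carbon chain comes, was at 22.0 and 21.9 TMM-rescaled TPM in control and at 69.7 and 69.6 in VDRC330035 (log2 fold change 1.68, SE 0.04, adjusted p = 6.7e-14). In BDSC#31593 it fell by 0.82, and the direct difference between these lines was 2.51 (adjusted p = 1.91e-07). The methyltransferase gene jhamt, which catalyses a final step in the corpora allata, was at 0.427 and 0.524 in control and at 3.04 and 3.55 in VDRC330035 (log2 fold change 2.80, SE 0.26, adjusted p = 3.65e-07). In the other 3 genotypes jhamt stayed between 0.326 and 0.841 and was not called. Being the defining marker of the corpora allata, jhamt was also the only gene on that marker list, so its part as a sign of other tissue was not tested.

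**Figure D5:**
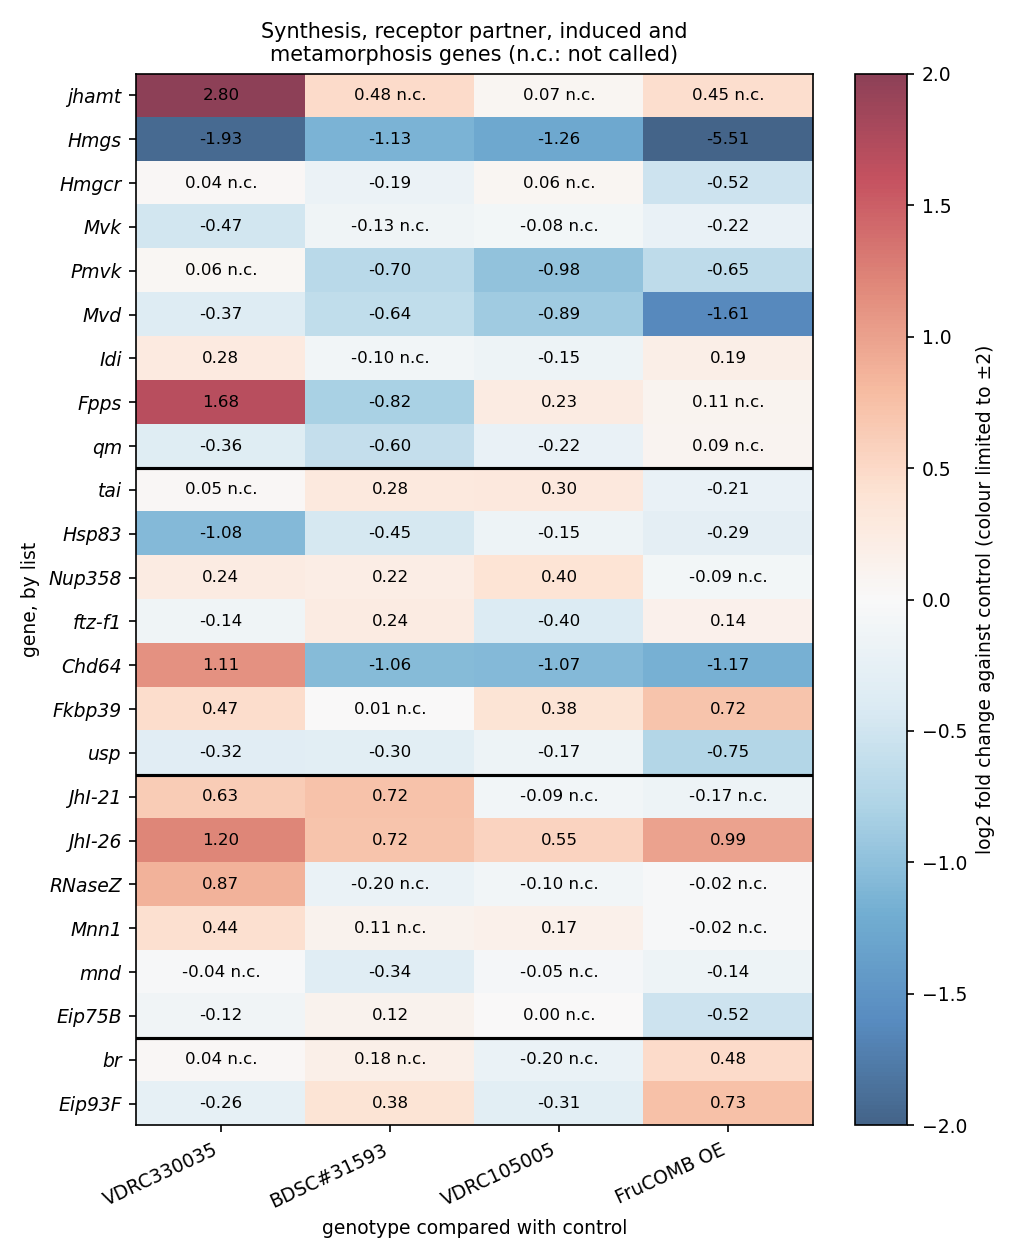
Log2 fold change against control (colour, limited to ±2, and printed value) for genes of juvenile hormone synthesis, receptor partners, hormone-induced genes and genes that Kr-h1 opposes in metamorphosis (rows, separated by lines) in the 4 other genotypes (columns), from edgeR; n.c. marks an adjusted p of 0.05 or more. Hmgs is negative in all 4 columns, from -5.51 to -1.13, while Fpps, jhamt and Chd64 are above 1 in VDRC330035 and under 0.5 in the other 3 columns.

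Of 7 genes for proteins that work with Met and Gce or have been proposed to, VDRC330035 had 3 called higher and 3 lower (median 0.05), BDSC#31593 3 and 3 (0.01), VDRC105005 3 and 4 (-0.15) and FruCOMB OE 2 and 4 (-0.21). Calls in both directions together were more common than over all genes (62.3%, 49.9%, 52.7% and 65%). Chd64, whose product binds a hormone response element in fly cells, was at 128 and 135 TMM-rescaled TPM in control, 283 and 281 in VDRC330035 and 60.8 to 67.9 in the other 6 libraries. It was thus raised about as much in VDRC330035 (log2 fold change 1.11) as it fell in BDSC#31593 (-1.06), VDRC105005 (-1.07) and FruCOMB OE (-1.17), with a largest adjusted p of 3.52e-07. The hemocyte marker sum, which is nearly that of crq, was likewise above control in VDRC330035 alone and below it in the other 3 genotypes, whereas the other 6 hemocyte markers summed to 7.46 to 9.20 in control, 9.86 to 9.88 in VDRC330035 and 6.38 to 10.8 elsewhere. Their part in the Chd64 differences was not tested. Hsp83, a chaperone that helps Met into the nucleus, fell from 598 and 589 to 280 and 278 in VDRC330035 (-1.08, adjusted p = 3.47e-15). The coactivator gene tai, whose product pairs with Met on DNA, moved little: it rose by 0.28 in BDSC#31593 and 0.30 in VDRC105005 and fell by 0.21 in FruCOMB OE, a fall that was not called in limma or when scaled by library size alone.

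Among 6 genes known to be induced by the hormone in fly cells, VDRC330035 had 4 called higher and 1 lower (median 0.53), BDSC#31593 3 and 1 (0.11), VDRC105005 2 and 0 (-0.02) and FruCOMB OE 1 and 2 (-0.08). The share called higher was above that of all genes in the 3 fru-RNAi lines and below it in FruCOMB OE, but it rests on few genes. In VDRC105005 the count called higher was 2 and fell to 1 in 6 of 12 alternatives. In FruCOMB OE that count was 1 and became 2 in 1 of 12 alternatives. JhI-26 was the 1 gene of the list that rose in all 4 genotypes. It was at 11.1 and 11.0 TMM-rescaled TPM in control, 25.3 and 25.4 in VDRC330035, 19.0 and 17.4 in BDSC#31593, 16.6 and 16.4 in VDRC105005 and 24.1 and 23.9 in FruCOMB OE, with log2 fold changes of 1.2, 0.72, 0.55 and 0.99. JhI-21, an amino acid transporter gene, rose by 0.63 in VDRC330035 and 0.72 in BDSC#31593 and was not called in the other genotypes. Eip93F and br, which Kr-h1 holds down before metamorphosis, both rose in FruCOMB OE, where Kr-h1 fell. Eip93F went from 57.6 and 54.8 in control to 96.2 and 98.3 (log2 fold change 0.73), and br, at about 1 TMM-rescaled TPM, by 0.48, a call that was lost in DESeq2 (adjusted p = 0.0752), in limma with 1 or 0.1 added (adjusted p = 0.0696 and 0.0925) and without control replicate 2 (adjusted p = 0.0605). In the fru-RNAi lines Eip93F did not follow Kr-h1 in 1 direction: its values were -0.26, 0.38 and -0.31 in VDRC330035, BDSC#31593 and VDRC105005. All were called, but the first was -0.05 and lost its call when scaled by library size alone (adjusted p = 0.147).

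The carboxylesterase list, relatives of Jhe that include the alpha-esterase cluster, held 13 genes, with 6 called higher and 5 lower in VDRC330035, 6 and 2 in BDSC#31593, 6 and 3 in VDRC105005 and 5 and 5 in FruCOMB OE, and medians between -0.04 and 0.14. Calls were again more common than over all genes (62.3%, 49.9%, 52.7% and 65%). In FruCOMB OE, where Jhe rose, alpha-Est3 fell from 333 and 330 TMM-rescaled TPM to 48.9 and 49.2 (log2 fold change -2.86), alpha-Est4 from 17.1 and 17.5 to 4.12 and 4.58 (-2.11) and alpha-Est9 from 17.1 and 17.0 to 9.20 and 8.45 (-1.07). The alpha-Est8 gene rose from 8.93 and 8.96 to 20.5 and 21.4 in VDRC105005 (1.2, adjusted p = 2.56e-07).

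The last list was the family named for juvenile hormone-binding proteins, secreted proteins that include takeout (to), of which 12 of 15 genes were tested. It had 8 called higher and 2 lower in VDRC330035 (median 0.44), 6 and 2 in BDSC#31593 (0.63), 8 and 2 in VDRC105005 (0.42) and 8 and 2 in FruCOMB OE (0.62). Higher calls took a larger share of the tested genes of this family, and lower calls a smaller one, than over all genes in each genotype. The 2 lower genes were Jhbp5 and Jhbp16 in each genotype. Jhbp16 was at 17.5 and 19.3 TMM-rescaled TPM in control, 4.53 and 3.61 in VDRC330035, 4.11 and 4.31 in BDSC#31593, 2.52 and 2.80 in VDRC105005 and 0.589 and 0.693 in FruCOMB OE, with log2 fold changes of -2.19, -2.13, -2.81 and -4.94. Jhbp5 went from 42.8 and 41.7 in control to 6.14 to 16.9 elsewhere, with log2 fold changes of -1.85, -2.47, -2.64 and -1.47. Jhbp14 was at 37.9 and 38.6 in control, 75.3 and 74.6 in VDRC330035, 79.1 and 81.5 in BDSC#31593, 80.4 and 76.0 in VDRC105005 and 67.6 and 64.1 in FruCOMB OE, and rose by 0.98, 1.07, 1.0 and 0.66 on the log2 scale. Jhbp12 rose by 2.37 in VDRC330035, 1.65 in VDRC105005 and 2.82 in FruCOMB OE. The to gene, which acts in feeding and male courtship, was at 0.640 and 0.408 in control. It rose by 2.16 in VDRC330035, 1.68 in VDRC105005 and 2.22 in FruCOMB OE, and its value in BDSC#31593 was 0.76.

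Over the 10 libraries, the genes whose log2 CPM tracked each member most closely were picked by Pearson correlation among 9557 genes with an average of at least 50 counts. The points are 5 pairs of replicates rather than 10 independent samples, and most of the likeness is that of 5 genotype means. For Jheh2 these were CG4757 (r = 0.99), the muscle LIM protein gene Mlp84B (0.98) and the glutathione S-transferase gene GstE3 (0.98). For Jheh1 they were Eglp4, CG17292 and the UDP-glycosyltransferase gene Ugt36E1 (all 0.99), for Jheh3 DIP1, Mct1 and CG4658 (all 0.99) and for Jhe CG9928 (0.99), CG34211 (0.97) and Frq1 (0.97). Kr-h1 went with alpha-Spec, OstDelta and the fatty acid synthase gene FASN3 (0.997, 0.995 and 0.995), gce with Ciz1 (0.99), CG42337 (0.99) and par-1 (0.98), and Met with rudhira, CanB2 and ftz-f1 (all 0.96). No member was among the 3 closest genes of another member. Between members the correlation was 0.53 for Jheh1 and Jheh2, -0.47 for Jheh2 and Jheh3, 0.13 for Jheh1 and Jheh3, 0.45 for Met and gce and, highest of all pairs, 0.76 for gce and Jheh3.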

How the data were processed

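The authors trimmed reads with fastp 0.22.0, aligned them with Bowtie2 to a dme6 reference and estimated counts with RSEM 1.2.31. The annotation version is not given in the sources used here. The deposited expected counts are the authors' unnormalized RSEM estimates per gene. A second deposited table gives TPM, which RSEM computed for the authors. The deposited TMM-rescaled TPM values, a signal per gene, are TPM times 1 factor per library.

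Expected counts were rounded, filtered with filterByExpr (minimum count 10, minimum total 15), TMM-normalized and tested with glmQLFit and glmQLFTest in edgeR 4.0.16 (R 4.3.3), using the 4 libraries of each comparison. Genes called have an adjusted p under 0.05. The standard error is the log2 fold change divided by the square root of F. The step was tested on simulated data with far fewer changed genes than were called here. That does not test the scaling where so many genes differ. Gene positions come from BDGP6.54, where 13983 of 13986 identifiers matched, and symbols from FlyBase names, where 13982 did. No sequence is shown.

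The members and lists were chosen with earlier results of these data known. List genes are named when called with at least 2-fold difference and 50 counts, at most 4 per list and genotype, and others singled out were chosen after their values were seen. Likeness used log2 CPM (prior count 2). Alternatives were DESeq2 1.42.0, library size alone, 2 other filters, a dispersion from all 10 libraries, the replicate number as a block, limma 3.58.1 on the deposited values plus 1 or 0.1, and leaving out each library. Summing Kr-h1 with CG45075 was added after seeing the data, in the comparisons with control. Figures used matplotlib 3.10.9.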

Additional observations from a re-analysis of the deposited data

Results flagged for a closer look

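Some genes were called in opposite directions against control in 2 genotypes, and the 2 genotypes also differed when compared directly with edgeR. All log2 differences below have an adjusted p of 0.000235 or less.

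Among the 8 genes these were gce and Kr-h1. The gce transcript was lower than control in VDRC330035 and FruCOMB OE and higher in BDSC#31593, with direct differences from BDSC#31593 of -0.73 (VDRC330035) and -0.51 (FruCOMB OE). Kr-h1 was higher in the 3 fru-RNAi lines and lower in FruCOMB OE, which differed from VDRC330035 by -0.76, from BDSC#31593 by -0.96 and from VDRC105005 by -0.89, though the VDRC330035 rise was lost with the counts of CG45075 added.

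Among the other pathway genes, Chd64 was higher in VDRC330035 and lower elsewhere, with differences of 2.19 from BDSC#31593 and 2.17 from VDRC105005 (VDRC330035 minus the other) and of -2.24 for FruCOMB OE minus VDRC330035. Fpps was higher in VDRC330035 and VDRC105005 and lower in BDSC#31593, which gave 2.51 for VDRC330035 minus BDSC#31593 and -1.06 for BDSC#31593 minus VDRC105005. Its rise in VDRC105005 was small (0.23) and lost its call when scaled by library size alone (0.14, adjusted p = 0.0519). The esterase gene alpha-Est3 was higher than control only in BDSC#31593, of the 4 genotypes, with -1.21 for VDRC330035 minus BDSC#31593, 0.78 for BDSC#31593 minus VDRC105005 and -3.26 for FruCOMB OE minus BDSC#31593. Its neighbour alpha-Est4 was also higher in BDSC#31593, with -1.18 for VDRC330035 minus BDSC#31593 and -2.55 for FruCOMB OE minus BDSC#31593. The alpha-Est9 gene was higher in VDRC330035 and lower in VDRC105005 and FruCOMB OE, with 0.48 for VDRC330035 minus VDRC105005 and -1.22 for FruCOMB OE minus VDRC330035.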

How the results depend on the processing

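Over the 10 comparisons and their alternatives, 785 values of the 7 tested genes kept their sign and their side of the threshold, 30 lost a call, 9 gained one and 20 changed sign. All rises of Jheh2 and falls of Jheh3 against control kept sign and call. Scaling by library size alone moved the median of all genes by 0.21 (VDRC330035), -0.16 (BDSC#31593), -0.09 (VDRC105005) and 0.17 (FruCOMB OE) against control, and limma on the deposited values moved FruCOMB OE by 0.11 to 0.12, so small differences depend on the scaling. With library size alone the log2 fold changes that turned were Met at 0.0688 and Jheh1 at 0.16 (VDRC330035 against control), Met at -0.0335 (BDSC#31593 against control), Met at 0.10, Kr-h1 at 0.17 and Jhe at 0.0675 (VDRC330035 against BDSC#31593), Kr-h1 at 0.14 and Jheh2 at 0.14 (VDRC330035 against VDRC105005), Kr-h1 at -0.0281 (BDSC#31593 against VDRC105005), Met at 0.25 and Jheh2 at 0.13 (FruCOMB OE against BDSC#31593) and gce at 0.0899 (FruCOMB OE against VDRC105005). The same scaling turned alpha-Est4 (-0.0351) and jhamt (-0.0224) in VDRC105005 and JhI-21 (0.00266) in FruCOMB OE, none of them called before.

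Jheh2 between VDRC330035 and BDSC#31593, a difference near 0, turned to -0.0199 in DESeq2, to -0.00031 with the dispersion of all 10 libraries and to -0.0195 and -0.0196 in limma with 1 or 0.1 added, and ranged from -0.0390 without BDSC#31593 replicate 2 to 0.0130 without its replicate 1. Met between FruCOMB OE and BDSC#31593 turned to 0.0570 and 0.0648 in limma with 1 or 0.1 added. The uncalled br difference in VDRC330035 turned to -0.0846 and -0.164 in limma and ranged from -0.0748 to 0.138 when 1 library was left out, and jhamt in VDRC105005 ranged from -0.556 to 0.538. The cause was not tested. Of the counts of list genes called, 541 stayed within 1.5 times and 35 did not, all of them counts of few genes.

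The labels do not say that a replicate number marks a shared batch. Deviations of same-numbered libraries correlated between -0.03 and 0.02 in the 4 pairs of genotypes with VDRC330035 and between 0.10 and 0.51 in the other 6, highest for BDSC#31593 with VDRC105005, so the numbers were not taken as pairs over the whole series, and a shared replicate effect among the other 4 genotypes was not tested further. With replicate number as a block, gce between FruCOMB OE and VDRC105005 lost its call (-0.11, adjusted p = 0.0577) and Jheh3 between BDSC#31593 and VDRC105005 gained one (-0.12, adjusted p = 0.0497), and no other call of the 7 genes changed. DESeq2 called 5529, 4143, 4288 and 5992 of all genes in the comparisons with control, against 7308, 5721, 6046 and 7544 with edgeR. Depth limits Jhedup and, less, Jhe.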
